A study of Mus musculus with 4 samples.

Results

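The highest-count sites of RNA editing in young mouse cortex, outside the noncoding RNA Malat1 and ribosomal-like RNA, numbered 418 of the 28412 listed sites. They were selected on their site count, a deposited whole number per site: all rows with a count of 100 or more entered, unless the symbol was Malat1, Gm37376 or CT010467.1. Those 3 symbols held a further 147 sites at or above the same threshold (103, 14 and 30). No source used here says what the number counts. As it chose the sites, all counts below are a description and carry no test.

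The sites come from scDART-seq of dissociated cortex, in which the cytidine deaminase APOBEC1, fused to the m6A-binding YTH domain, edits cytosines beside N6-methyladenosine. The 4 samples were sublibraries of a single pool of cells carrying either APOBEC1-YTH or APOBEC1-YTHmut, and pooled replicates 1 and 2 were not separated. The mice received tamoxifen at 20 mg/kg at intervals of 24 h during 5 days, starting at an age of 6 to 8 weeks, and their cortex was collected after a further 7 days. All 4 samples share that treatment, and no source used here names the promoter that drives the fusion. The series text also mentions sorted neuronal nuclei, which were not analysed here. A single list covers the pool with no genotype, cell or sample per site, so there are no replicates and depth per site is unknown. The 2 fusions cannot be told apart, so whether a listed site depends on m6A could not be tested. The cells behind a site are not named either: 16 of 18 markers of excitatory neurons, 21 of 25 of astrocytes and 4 of 15 of microglia had any listed site.

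N6-methyladenosine, m6A, is the most common internal modification of messenger RNA. A methyltransferase complex installs it at adenosines followed by cytosine, often in the sequence DRACH, where D is A, G or T, R is a purine and H is any base but G. It is known to gather near stop codons and in 3' untranslated regions (UTRs), and reader proteins with a YTH domain bind it and act on splicing, transport, translation and decay. In neurons many transcripts that encode synaptic proteins carry it.

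The windows around the leading sites show what was edited. Each is read from the annotated transcript, 5' to 3', with 10 bases on either side of the edited C, and the capitals mark that C with the A before it and the purine before that A (RAC). Coordinates are mm10. These 9 are the highest-count sites of 9 of the genes described below.

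Camk2n1, chr4:138457642-138457662, plus strand, count 1099: caaagacaAACttgcttgagc
Gria2, chr3:80688214-80688234, minus strand, count 1029: ttgacatcAACtgcatcaaga
App, chr16:84955184-84955204, minus strand, count 876: cggcttttGACagctgtgctg
Ppp3ca, chr3:136935740-136935760, plus strand, count 840: tcctgtcaGACaatggctata
Atp2b2, chr6:113748261-113748281, minus strand, count 733: ataataatAACgaattaatta
Ywhaz, chr15:36771685-36771705, minus strand, count 636: gacttttcAACtacttttctc
Gria3, chrX:41676524-41676544, plus strand, count 583: agacttgcGACaatgcaaacc
Actb, chr5:142903747-142903767, minus strand, count 581: ctttctttGACaaaacctaac
Snap25, chr2:136781827-136781847, plus strand, count 415: aaagcaacAACtacgcatgct

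The windows of Camk2n1, App, Ppp3ca and Actb are DRACH. Those of Gria2, Ywhaz, Gria3 and Snap25 have a C before RAC, and that of Atp2b2 has a G after the edited C, which puts these outside DRACH.

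The 418 sites belonged to 147 gene symbols, 3.50% of the 4206 in the list. The genes with such a site had a median of 38 listed sites of any count, where the 4056 other genes had a median of 2. Site counts of the 418 ran from 100 to 1099 with a median of 167. Of them, 263 lay under 200, 131 from 200 up to below 500, and 24 at 500 or more, in 12 genes. Just inside the threshold, 23 sites had a count of 100 or up to 2 more, among them sites of Kcnj9, Rtn4, Ncald, Celf5 and Uri1 at 100. Just outside it, 25 sites had 97 to 99, among them sites of Rgs5, Serbp1, Septin7 and Ttyh1 at 99. Genes such as Rgs5 and Meg3 had sites on both sides.

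The sites were concentrated in few genes. There were 80 genes with 1 such site, 27 with 2, 17 with 3 or 4 and 23 with 5 or more, and the last group held 227 of the 418 sites (54.3%). The most were in Meg3, a long noncoding RNA of an imprinted locus, with 24. Gria2 had 22, Snap25 had 17, Camk2n1 had 15, App and Ppp3ca had 12 each, and Snhg11 had 11. The noncoding RNA 2900097C17Rik had 10. The kinase subunit Camk2a and Vsnl1, a neuronal calcium sensor, had 9 each. The gene with the most such sites did not have the highest counts, as the plot by gene shows. Meg3 ranged from 101 to 274, whereas Camk2n1 ranged from 113 to 1099 with a median of 455.

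**Figure D1:**
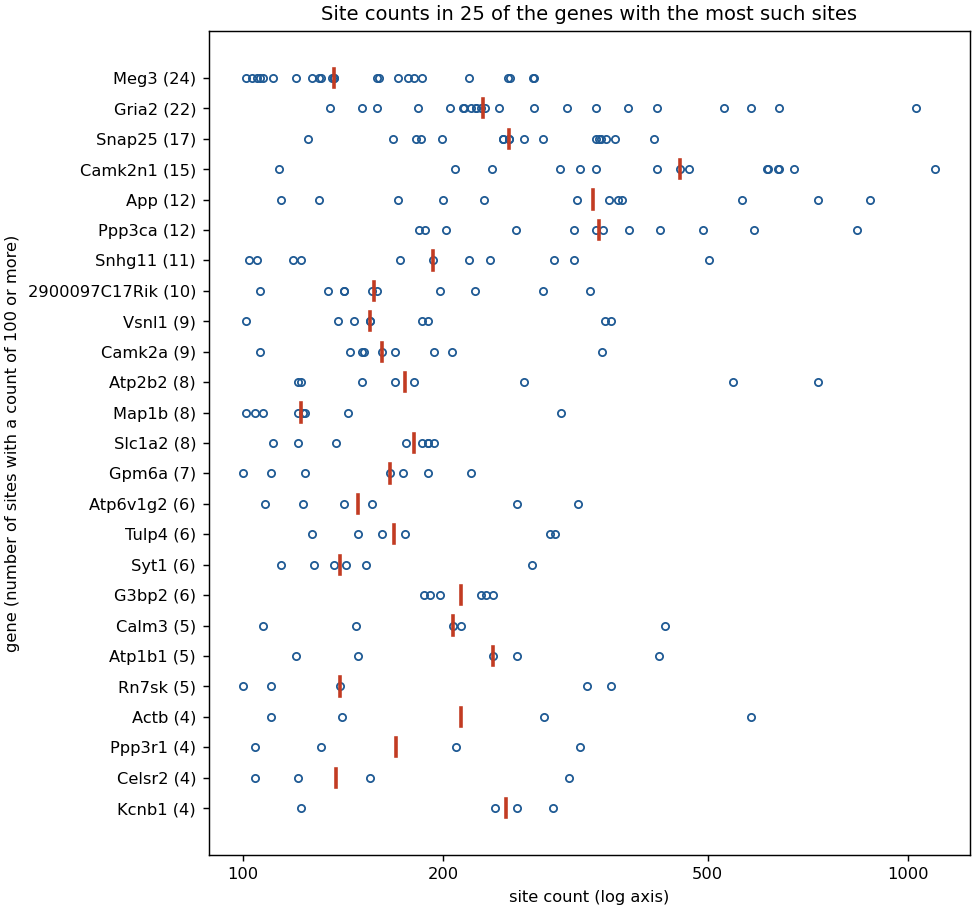
Site count (log axis) of every site with a count of 100 or more in 25 of the genes with the most such sites, with 1 circle per site and a red bar at the gene's median. Meg3 has 24 sites up to 274, and Camk2n1 has 15 sites up to 1099.

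Among glutamate receptor genes Gria2 had the most sites and the highest count. It is the AMPA receptor subunit that makes the receptor impermeable to calcium after RNA editing. It had 22 of its 95 listed sites in the group, with counts from 135 to 1029. All 22 lay in the 3' UTR between 405 and 685 nt after the stop codon, although that UTR is annotated at 7268 nt. Up to 12 of them fell within 100 nt. Gria3 had 3 sites, with counts of 583, 192 and 108, between 190 and 206 nt after the stop codon. The other AMPA subunits stayed under the threshold, with a highest count of 35 in Gria1 and of 9 in Gria4. Among NMDA receptor subunits, Grin2b had 3 sites, with counts of 133, 125 and 123, and the highest counts of Grin2a and Grin1 were 80 and 59. The sites of Grin2b were scattered: 1 was in the 5' UTR, and the farthest was 17734 nt after the stop codon.

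Of the 21 calmodulin and calcium signalling genes, 12 had a site of 100 or more, and of the 27 postsynaptic genes 9 did. Of these lists, 19 and 26 genes had any listed site. The gene lists share genes such as Camk2n1 and Ppp3ca, and were chosen with earlier results of these data known. The share over all symbols with a listed site was 3.50%, and no test against it was made. Camk2n1, an inhibitor of the kinase CaMKII, had the highest count of all, 1099, at position 138457652 of chromosome 4. Its 15 sites lay 281 to 988 nt after the stop codon in a 3' UTR of 3335 nt. The cytosines 4 and 10 nt upstream of that site had counts of 640 and 637. Ppp3ca, the catalytic subunit of the phosphatase calcineurin, had 12 sites from 184 to 840, and its regulatory subunit Ppp3r1 had 4 from 104 to 321. The second catalytic subunit, Ppp3cb, reached 70. The kinase subunits Camk2a and Camk2b reached 347 and 148, whereas Camk2d and Camk2g reached 72 and 17. Calm3 and Calm2 encode the same calmodulin protein. Calm3 had 5 such sites with a highest count of 431, and Calm2 had 2 up to 128, although Calm2 had more listed sites, 55 against 40. Atp2b2, a calcium pump of the plasma membrane, had 8 sites from 121 to 733, and its relatives Atp2b1 and Atp2b4 reached 86 and 85 in 75 and 71 listed sites.

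Of the 28 genes of synaptic vesicles and release, 7 (25.0%) had such sites, 29 in all, against 3.50% over all symbols. This list too was chosen with earlier results of these data known. Snap25, a SNARE protein of synaptic vesicle fusion, had 17 of its 80 listed sites in the group. Their counts ran from 125 to 415, and they lay between 531 and 784 nt after the stop codon in a 3' UTR of 1285 nt. Syt1, the calcium sensor of release, had 6 sites in 3 kinds of region, with counts of 153, 143 and 137 in the 3' UTR, 272 and 128 in the coding sequence (CDS) and 114 in the 5' UTR. Nrxn2, a presynaptic adhesion protein, had 3 sites up to 203, of which 2 were coding, and Nrxn3 had 57 listed sites but none over 50. Atp6v1g2, a subunit of the proton pump that fills vesicles, had 6 from 108 to 319.

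App, the amyloid precursor protein, had 12 sites between 33 and 655 nt after the stop codon, with counts of 876, 733 and 563 at its 3 highest. Its relatives Aplp2 and Aplp1 reached 95 and 25. The plot of 5 genes shows that the high counts were packed into a short stretch of each 3' UTR, while listed sites with low counts went on beyond it. Together Camk2n1, Gria2, Snap25, Ppp3ca and App held 78 of the 418 sites (18.7%) and 15 of the 24 with a count of 500 or more. All 78 were in a 3' UTR and none lay beyond 988 nt after the stop codon.

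**Figure D2:**
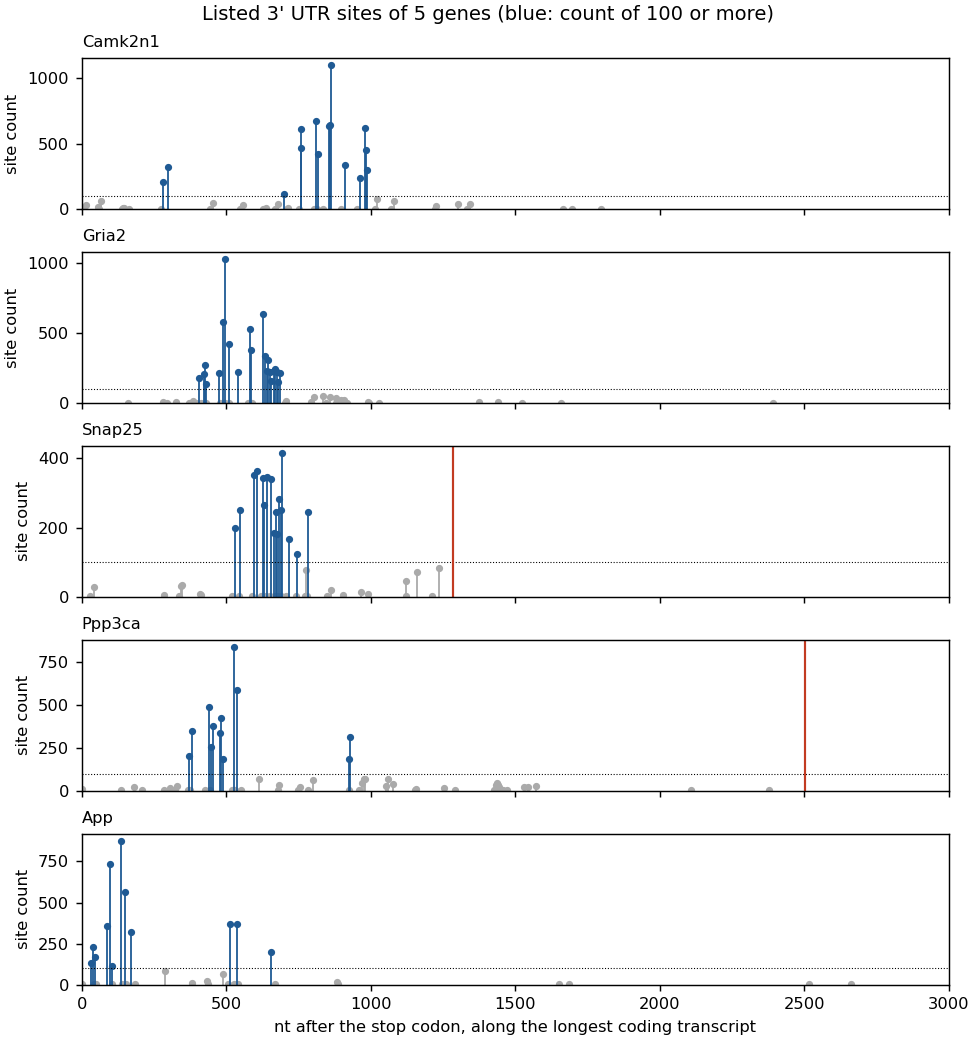
Site count of every listed 3' UTR site of 5 genes against its distance from the stop codon in nt, up to 3000 nt, with blue for counts of 100 or more, grey for lower counts, a dotted line at 100 and a red line at the annotated transcript end where it falls in view. The blue sites of each gene lie within 988 nt of the stop codon, and grey sites continue beyond them.

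Marker lists of glial and vascular cells also held such sites: 11 for astrocytes, 9 for oligodendrocytes, and 4 for endothelial cells and pericytes. The excitatory neuron markers held 11, in 2 of 18 genes. In pooled cells, fewer cells of a type and less of an RNA per cell cannot be told apart. Of the astrocyte markers, 4 of 25 had such a site. Slc1a2, the main astrocyte glutamate transporter, had 251 listed sites and 8 in the group, with counts from 111 to 194. Of its 8, 6 lay more than 7000 nt after the stop codon of a 3' UTR of 9250 nt. In the 5 genes plotted above, none lay beyond 988 nt. Plpp3 reached 290 and Sparcl1 reached 160, each with 1 site. Of the oligodendrocyte markers, 4 of 19 had one. Scd2, a fatty acid desaturase, Qk, an RNA-binding protein of myelinating cells, and Mal, a myelin protein, reached 202, 112 and 111. Of the endothelial and pericyte markers, 3 of 23 had one: Bsg at 139, Slc2a1, the glucose transporter of the blood-brain barrier, at 135 and 108, and Rgs5 at 135. None of 15 markers of inhibitory neurons, 10 of oligodendrocyte precursors or 15 of microglia had a site of 100 or more. Of these, 6, 4 and 4 had any listed site. The share over all symbols was 3.50%, and 3.50% of 10 or 15 genes is less than 1 gene.

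Of the cytoskeletal and broadly expressed groups, some had such sites in a part of their genes and others had none. Of 41 cytoskeleton genes, 34 with any listed site, 7 had such a site (17.1%, against 3.50% over all symbols with a listed site). Among them was Actb, with 581, 284, 141 and 110 within 79 nt after the stop codon, while the other cytoplasmic actin, Actg1, reached 17. Map1b had 194 listed sites and 8 in the group, with counts of 301 at the highest and 101 at the lowest. Of the 14-3-3 adaptor genes, Ywhaz reached 636, Ywhab 132 and Ywhag 124, and Ywhae, Ywhah and Ywhaq reached 38, 58 and 7. Atp1b1, a subunit of the sodium-potassium pump, had 5 sites up to 422. Of 17 translation and ribosomal genes only Eef1a1 had such a site, at 112, and of 21 immediate early genes only Jund, at 122. These shares of 5.88% and 4.76% were near the 3.50% over all symbols. None of 16 energy metabolism genes and none of 15 ubiquitin genes had one, where 3.50% of 15 or 16 genes is less than 1 gene. The lists together held 67 of the 147 genes and 270 of the 418 sites.

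The transcript position of the sites was not used in choosing them. Of the 418, 327 were in a 3' UTR, 78.2% (exact binomial 95% interval 74.0 to 82.1). A further 24 were in the CDS (5.74%, 3.71 to 8.42), 9 in a 5' UTR (2.15%), 57 in exons of noncoding transcripts (13.6%) and 1 in an intron. Of the 3799 other sites of the same genes with a count of 4 to 99, 67.7% fell in the 3' UTR and 17.4% were coding. Over all 16116 other sites with such counts outside the excluded symbols, those included, these shares were 64.6% and 25.1%. The CDS share was thus below both, and with 1 site per gene it was 11.6%. In these comparisons, sites of a gene share its RNA and depth, so the intervals cover counting error alone and no test between the groups was made.

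**Figure D3:**
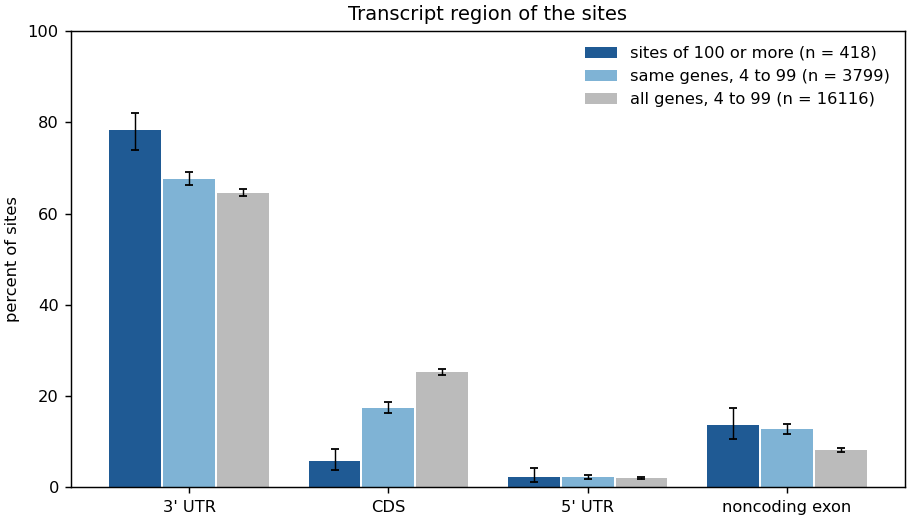
Percent of sites in each transcript region for sites with a count of 100 or more, for other sites of the same genes and for other sites of all genes with counts of 4 to 99, with exact binomial 95% intervals as error bars. The 3' UTR holds 78.2%, 67.7% and 64.6%, and the CDS 5.74%, 17.4% and 25.1%.

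As a group, the sites lay nearer to the stop codon than other listed sites did. Of the 355 on a complete longest coding transcript, 144 had the stop codon within 400 nt on either side (40.6%, 35.4 to 45.9). The share was 27.3% for the other sites of the same genes and 30.7% for other sites of all genes. The first 200 nt of the 3' UTR held 87 of the 355 (24.5%), against 9.47% and 13.1%. The first 1000 nt held 239 (67.3%), against 38.2% and 40.9%. The last 200 nt of the CDS held only 6. Among 3' UTR sites the median distance was 512.5 nt, at 18.5% of the UTR's length, against 919 nt and 36.0% in the same genes. Gene by gene, the median of the high-count 3' UTR sites was nearer to the stop codon than that of the gene's other sites in 67 of 103 genes, and farther in 35. Of the 407 sites on a longest transcript, 367 (90.2%) were in its last exon, and 77.0% of the other sites of the same genes were.

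**Figure D4:**
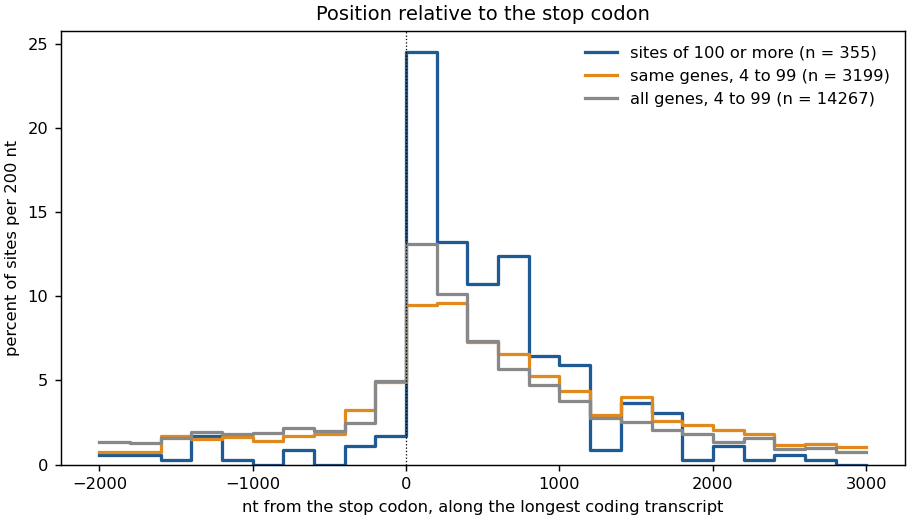
Percent of sites per 200 nt along the longest coding transcript against the distance from the stop codon in nt, where 0 is the stop codon, for sites with a count of 100 or more and for sites of the same genes and of all genes with counts of 4 to 99. The first 200 nt of the 3' UTR hold 24.5%, 9.47% and 13.1%.

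High-count sites stood among other listed sites. Another listed site of the same gene lay within 10 nt of 338 of the 418 (80.9%, 76.8 to 84.5). The share was 59.9% for the other sites of the same genes and 47.3% for other sites of all genes. These neighbours include sites at the lowest count, 3. With neighbours of a count of 4 or more alone, an alternative chosen after seeing the data, the shares were 54.3% (49.4 to 59.2), 35.4% and 27.9%. The median number of such neighbours within 50 nt was 3, against 2 and 1. The list gives no depth, and its part in this closeness was not tested. Between neighbouring high-count sites of a gene the median gap was 28 nt, and 203 of 271 gaps were 100 nt or less. In 30 genes 3 or more of them fell within 100 nt, and in 10 genes 5 or more did. All 6 of G3bp2, a stress granule protein, lay in 91 nt of its 3' UTR with nearly equal counts, 187 to 238. An exon of Gm26582 is annotated on the opposite strand of these 6.

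The bases at the site showed little difference in the DRACH motif. All 417 sites with sequence were in RAC, and so were all 16686 listed sites with sequence and a count of 4 or more, so RAC does not set the high-count sites apart from these. At the lowest count in the list, 3, only 5326 of 11622 sites were in RAC (45.8%). Of the 417 high-count sites, 308 (73.9%, 69.4 to 78.0) were DRACH, against 72.6% of other RAC sites in the same genes and 72.0% in all genes. With 1 site per gene the share was 67.8%. In the 3' UTR it was 77.7%, against 77.1% in the same genes. In noncoding exons it was 64.9% (51.1 to 77.1), against 79.0%. The commonest 5-base context was AAACA, at 74 sites of 40 genes (17.7%, 14.2 to 21.8). It made up 10.3% of other sites in the same genes and 14.4% in all genes, the last within the interval. An A followed the edited C at 51.3% (46.4 to 56.2) and a C at 11.3% (8.40 to 14.7), where the other sites of the same genes had 40.0% and 19.8%, and those of all genes 43.2% and 16.2%. GGAC, part of the consensus sequence of m6A, was found at 23 sites (5.52%, 3.53 to 8.16), against 9.35% in the same genes and 6.58% in all genes, the last within the interval. The 41 nt around 3' UTR sites were richer in A and T, with a median of 65.9% against 58.5% in the same genes and 61.0% in all genes. Within genes, this difference had the same direction in 71 of 111 genes and the opposite in 31.

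The 24 coding sites belonged to 20 genes and had a median count of 139.5. The highest was at Hsp90ab1, a cytosolic chaperone, with a count of 509 in exon 6 of 11, 1514 nt before the stop codon. The second count of Hsp90ab1 was 96, and its relative Hsp90aa1 reached 74. Kif1a, a motor of synaptic vesicle precursors, had 2 coding sites at 290 and 109. Scn2a, a sodium channel of axons, had 2 at 240 and 228 that were 5 nt apart, 126 and 121 nt before the stop codon. Editing would leave the amino acid unchanged at 9 of the 24 and change it at 10, and at 4, in Pnisr, Son, Sf3b1 and Kif1a, it would make a stop codon. The last of the 24, in Dst, was not classed because its coding start is incomplete. Among 3928 other coding sites with counts of 4 to 99, 50.5% were synonymous, 38.7% changed an amino acid and 10.7% made a stop codon. A G followed the C at 13 of the 24 (54.2%, 32.8 to 74.4), against 28.8% of other coding sites.

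Several coding windows carried the same letters at the edited base. The sequence AACGGGA, in which the C is the edited base, was noticed in the windows and then counted on the transcript strand only. Because the letters were picked from windows of these same sites, the shares are a description, and the interval is no test of a difference. It was present at 4 of 24 coding sites (16.7%, 4.74 to 37.4) and 103 of 4049 other coding sites (2.54%). Among 3' UTR sites it was present at 6 of 326 (1.84%), in only 4 genes, and at 34 of 10247 others (0.332%), in 29 genes. The windows of the 4 coding genes and of Rbm25, whose site is in the 3' UTR of a shorter isoform and in the CDS of the longest, are shown because they share these letters.

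Hsp90ab1, chr17:45570544-45570564, minus strand, count 509: ggagaaggAACgggagaagga
Dhx15, chr5:52184814-52184834, minus strand, count 141: agacagagAACgggagaggga
Dst, chr1:34171214-34171234, plus strand, count 104: acacaaagAACgggaccttga
Qk, chr17:10273989-10274009, minus strand, count 112: gaagcagaAACgggatgtaaa
Rbm25, chr12:83668182-83668202, plus strand, count 316: ggagagagAACgggaacggga

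Hsp90ab1 and Dst encode a chaperone and a cytoskeletal linker, and Dhx15, Qk and Rbm25 encode RNA-processing factors. Their counts were 509 in Hsp90ab1, 141 in Dhx15, 104 in Dst, 112 in Qk and 316 in Rbm25. The 3' UTR sites with the letters were in Rbm25, Luc7l3, Grin2b and Jund, and that of Luc7l3 is also coding in its longest isoform.

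Of the 9 sites in 5' UTRs, 6 were in Tulp4, a relative of the tubby proteins. They lay in its first exon, which is 1009 nt long, between positions 6138663 and 6138808 of chromosome 17, with counts of 295, 289, 175, 162, 149 and 127. Tulp4 had 54 listed sites in all and none of 100 or more in the 3' UTR. The remaining 3 were in Grin2b at 133, Syt1 at 114 and Lef1 at 101.

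Noncoding exons held 57 sites of 14 genes. In Meg3 the 24 sites were spread with a median gap of 197 nt, and at most 3 fell within 100 nt. Of these, 19 were in the last of 5 exons of its longest transcript. Rn7sk, the 7SK small nuclear RNA that restrains transcription elongation, had 5 sites with counts of 358, 329, 140, 110 and 100 among 17 listed. Xist, which silences an X chromosome, had 137 listed sites but 2 in the group, at 258 and 199, and both also lie in an exon of Tsix on the opposite strand. Oip5os1 had 3 up to 238 and Cdr1os 2 up to 181. Snhg11 is annotated as protein-coding, so its 11 sites, 1074 to 4293 nt after the annotated stop codon, are counted in the 3' UTR.

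Some sites cannot be assigned to a single gene by sequence. Of 414 sites with a window of 41 nt, 33 in 16 genes had the identical window in an annotated transcript of another gene, on either strand. They included 2 sites each of Meg3 and Gm27000, each with its window in the other gene, and sites of 2900097C17Rik and Gm7292. Sites of Rn7sk have their window in Gm24447, both sites of Pcdhga1 match other gamma protocadherins, and all 6 of G3bp2 match their opposite-strand gene. The window of the Syt11 site was found in 13 other genes. No source used here says how reads that map to several places were handled.

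Most genes had graded counts, but in some a site stood alone. The highest count was at least 3 times the second in 36 of the 146 genes with a second listed site. There were 13 of the 418 with no other listed site, of any count, of the gene within 50 nt. Nos1ap, an adaptor of neuronal nitric oxide synthase, had 4 listed sites, the highest at 416 and the second at 64. Gm47283 had a count of 804 at position 90793257 of chromosome Y, in an intron, where its second count was 20. Uri1 had a single listed site, at 100, and Chst1 had 2, at 116 and 3. The plot of all genes shows these apart from the bulk, in which genes with many listed sites also had high counts.

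**Figure D5:**
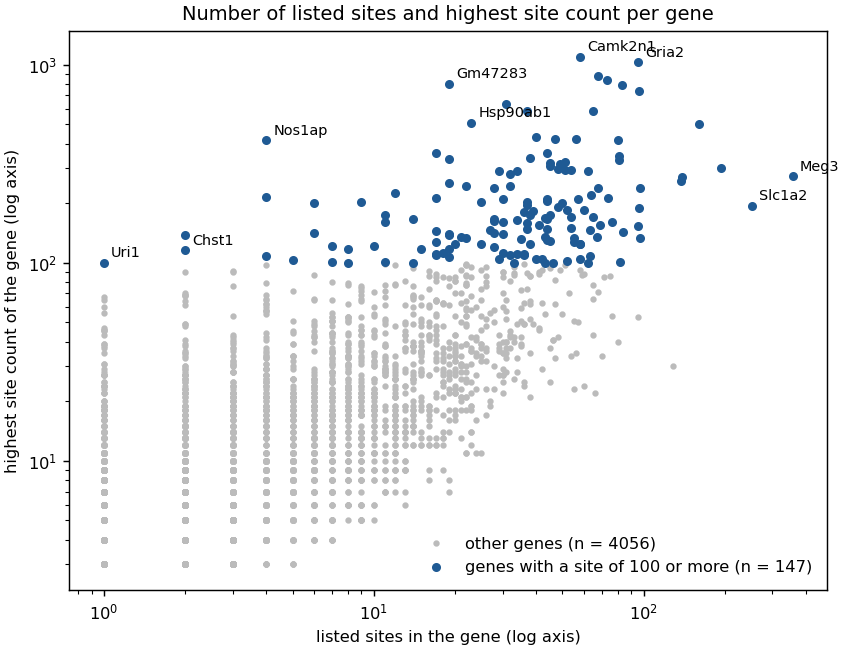
Highest site count of each gene against its number of listed sites, both on log axes, with blue for the 147 genes with a site of 100 or more and grey for the 4056 others. Nos1ap lies at 4 listed sites and a count of 416, and Meg3 at 356 listed sites and 274.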

How the data were processed

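The only file used was a list of C-to-U sites with no header. The authors deposited a position, strand, symbol and whole number for each, read here as a raw count. STAR 2.7.5 and mm10 are named per the submitters' processing notes. The Bullseye pipeline is named per the labels of the series, in a passage on sorted neuronal nuclei. Filters on cells, reads and sites, not given in the sources used here, decide what could be listed. The members and gene lists were chosen with earlier results of these data known.

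Sites were placed with Python 3.11.15 on GENCODE M21 transcripts, which have mm10 coordinates, by symbol (413 of the 418) or older symbol (5). Of 28338 exonic sites, 28337 had a C. Where isoforms differed, a 3' UTR took precedence over coding sequence, then 5' UTR, then noncoding exon and intron. Stop codon distances used the longest coding transcript. Placement was tested on simulated data. Comparison sites had counts of 4 to 99. Intervals are exact binomial (Clopper-Pearson, 95%) and cover counting error only. There are no p-values, since the list has no replicates.

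Named genes were those with the most members or the highest counts, up to 3 per gene list, those with members outside the 3' UTR, and those at the threshold. A few that qualify are left undescribed. Other genes were chosen after their values were seen: relatives in a gene family, further list genes, and genes with isolated sites, shared windows or a shared motif.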

Additional observations from a re-analysis of the deposited data

How the results depend on the processing

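Alternative settings changed the number of sites most. A threshold of 50 gave 1046 sites in 342 genes, and a threshold of 200 gave 155 sites in 58 genes. The 3' UTR share was 84.5% at a threshold of 200 and 83.0% without Meg3, the gene with the most such sites. The CDS share was 11.6% with 1 site per gene and 9.46% at a threshold of 50. Within 200 nt of the stop codon, in place of 400 nt, lay 26.2%. The DRACH share was 67.8% with 1 site per gene. The share with another listed site within 10 nt was 74.1% with 1 site per gene, 75.4% at a threshold of 50 and 85.2% at 200, and it was 91.1% within 20 nt and 96.9% within 50 nt. With neighbours of a count of 4 or more alone, chosen after seeing the data, it was 54.3%, since fewer sites then count as neighbours. The last-exon share was 83.5% with 1 site per gene. The cause was not tested otherwise, apart from a wider or narrower window, which holds more or fewer sites by construction. The other 21 of 38 alternatives stayed within the binomial interval of the value or within 1.5 times the count. Depth limits these values in a way that cannot be measured, as the list holds none. No paired analysis was possible because sites of 1 pool carry no replicate numbers.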
